A study of Mus musculus with 80 samples.

Results

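Genes that release fatty acids from circulating lipoproteins, take them up, and free them again from stored triglyceride were followed across 4 tissues and 4 genotypes of mice. The 10 genes were chosen by name and function, by a rule that uses no measured value, although earlier results of these data were known: Lpl with its partners Gpihbp1 and Lmf1, its inhibitors Angptl4 and Angptl8, the uptake receptors Cd36 and Vldlr, and the intracellular lipases Pnpla2, Lipe and Mgll. All 10 were found among the 32764 gene symbols counted.

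Lipoprotein lipase, the product of Lpl, is folded in the endoplasmic reticulum with the help of the maturation factor LMF1, secreted by adipocytes and myocytes, and carried by GPIHBP1 to the lumen of capillaries, where it hydrolyses the triglyceride of chylomicrons and very low density lipoproteins. Proteins of the angiopoietin-like family inhibit the enzyme, and the fatty acids it releases enter cells in part through CD36, while the VLDL receptor binds whole lipoproteins. Within the fat cell, PNPLA2 (adipose triglyceride lipase), LIPE (hormone-sensitive lipase) and MGLL (monoacylglycerol lipase) cleave stored triglyceride in sequence, and in brown adipocytes the released fatty acids fuel heat production and activate UCP1.

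The mice were male C57BL/6J of 4 genotypes: WT, FGF21 KO, UCP1 KO and the double knockout (dKO), which the labels spell UCP1/FGF12 and the study UCP1/FGF21. All were born and raised at 30 °C, then moved at 10 to 12 weeks of age to room temperature with high-fat diet for 3 weeks, and food was withdrawn 2 to 3 h before dissection. RNA sequencing covered liver, muscle, brown adipose tissue (BAT) and inguinal white fat (iWAT), in 5 libraries per genotype and tissue, 80 in all, with 28691377 to 50380696 reads counted on genes per library. No label linked a library to a mouse, so p-values measure the spread between these libraries.

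Fgf21 had 0 to 3 counts in every library of FGF21 KO and dKO, against 7 to 10 in WT BAT and 353 to 1728 in UCP1 KO BAT. Ucp1 was still counted in the UCP1 KO, with 24291 to 60779 reads in BAT against 98548 to 216085 in WT, and in iWAT it was higher in UCP1 KO (3942 to 20264) than in WT (109 to 776). The counts do not show which part of the gene the reads came from, so Ucp1 does not check the labels. Tissue labels were met by their markers: the mean log2 CPM of 6 hepatocyte genes was 12.54 to 13.14 in liver and that of 10 skeletal muscle genes 13.21 to 13.52 in muscle, and adipocyte genes scored 6.51 to 8.37 in BAT and 8.97 to 10.88 in iWAT against -1.32 to 0.22 in liver. Other cells were present in the fat. In BAT the skeletal muscle score ranged from 2.43 to 9.60 among UCP1 KO and from 2.85 to 8.56 among dKO libraries, and from 1.16 to 3.21 (WT) and 1.23 to 4.88 (FGF21 KO) in the others. In iWAT, 9 of 20 libraries had a lymphocyte score of 6.35 to 7.50 and the other 11 one of -0.38 to 1.64. The iWAT skeletal muscle score spanned 1.02 to 9.80 in WT, 1.78 to 8.40 in FGF21 KO, 1.59 to 10.38 in UCP1 KO and 1.49 to 5.93 in dKO.

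In WT mice the levels of the 10 genes were compared between tissues. They are given in CPM, the reads of a gene relative to the total of its library, scaled over the 20 WT libraries of all tissues, as mean ± SD of 5 libraries. Lpl was highest in iWAT (3250.3 ± 844 CPM) and BAT (2098 ± 467), then muscle (678 ± 191), and lowest in liver (20.4 ± 2.69), 159 times lower than in iWAT. Between iWAT and BAT it was not called (adjusted p = 0.0114), although RLE factors (0.00978) and DESeq2 (0.00282) did call it. Gpihbp1, made by capillary endothelium, was at 83.9 ± 5.57 CPM in BAT and 78.4 ± 32.1 in iWAT, with no call between them, and lower in muscle (27.5 ± 3.54) and liver (16.02 ± 3.14). Lmf1 went the other way, with its highest level in liver (49.2 ± 3.81 CPM), then BAT (39.2 ± 1.59), iWAT (14.7 ± 2.15) and muscle (11.4 ± 0.915), every step called, although the step from liver to BAT was lost with another scaling given below. The genes of the lipase and of its maturation factor were thus ordered differently over the same libraries.

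Among the inhibitors, Angptl4, which is induced by fatty acids and fasting, was at 465 ± 78.1 CPM in BAT, 348 ± 99.8 in iWAT, 203 ± 33.6 in liver and 16.2 ± 6.93 in muscle. Angptl8, an insulin- and feeding-responsive gene, was at 26.5 ± 6.59 CPM in liver, 17.5 ± 3.07 in BAT, 3.28 ± 1.02 in iWAT and 0.0535 ± 0.0636 in muscle, close to absent there. Neither BAT against iWAT for Angptl4 (adjusted p = 0.126) nor liver against BAT for Angptl8 (0.0321) passed the threshold of 0.01. Of the uptake receptors, Cd36 was at 2507 ± 64.6 CPM in BAT and 2321 ± 750 in iWAT, with no call between them, a log2 difference of 0.11 and a 95% interval of -0.34 to 0.56, and lower in muscle (510.2 ± 100) and liver (43.1 ± 11.5). Vldlr was the only one of the 10 with its highest mean in muscle (456 ± 58.8 CPM), ahead of BAT (236 ± 21.8), iWAT (59.2 ± 10.8) and liver (2.01 ± 0.961), every step called.

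The lipases followed the fat depots. Pnpla2 was at 2495 ± 227 CPM in BAT, 1372 ± 336 in iWAT, 207 ± 20.4 in muscle and 70.0 ± 12.0 in liver, every step called, although the step from BAT to iWAT was also lost with that other scaling. Lipe was at 1568 ± 128 CPM in BAT and 1090.1 ± 250 in iWAT, whose libraries did not overlap though the adjusted p was 0.0222, against 52.4 ± 18.4 in muscle and 25.1 ± 2.74 in liver. Mgll was at 860.2 ± 74.0 CPM in BAT, 720.1 ± 259 in iWAT, 207 ± 9.42 in liver and 78.1 ± 9.78 in muscle. The 3 lipases shared the order of both fat depots before the rest, but liver stood above muscle for Mgll and below it for Pnpla2 and Lipe.

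Counted over the pairs of tissues, the members called at an adjusted p under 0.01 were 4 of 10 between BAT and iWAT, 9 between BAT and liver, and all 10 in each of the other 4 pairs. Angptl8 had 0 to 5 counts in WT muscle and passed the filter for low counts only through the other tissues. Its calls in the pairs with muscle follow from that and are no added evidence. Of all 16886 genes, 60.7% were called between BAT and iWAT, 67.3% between BAT and liver, 64.1% between BAT and muscle, 74.9% between iWAT and liver, 74.4% between iWAT and muscle and 73.8% between liver and muscle. The median of all genes lay at a log2 difference of 0.23 between iWAT and muscle and at most 0.1 from 0 in the other pairs.

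Differences between tissues depend on how the libraries were scaled. With library totals in place of TMM factors the median of all genes moved to -0.84 for BAT against iWAT, to 1.13 for iWAT against liver and to 1.21 for iWAT against muscle. The median of the 10 genes for BAT against iWAT moved with it, from 0.47 to -0.25. Of the members, 5 then had the opposite sign in that pair: Gpihbp1 at -0.61, called at an adjusted p of 0.00977, Cd36 at -0.60, Mgll at -0.45, Angptl4 at -0.30 and Lipe at -0.20. Pnpla2 kept its sign at 0.14 against 0.86 but was no longer called (adjusted p = 0.391), and Lpl was called at -1.34. Lmf1 for BAT against liver went from -0.33 to 0.02 and lost its call. Angptl8, Vldlr and Lmf1 were called higher in BAT than in iWAT under both scalings. The wide spread of the iWAT values goes with 2 of its 5 WT libraries having a high lymphocyte score, and its part in these differences was not tested.

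**Figure D1:**
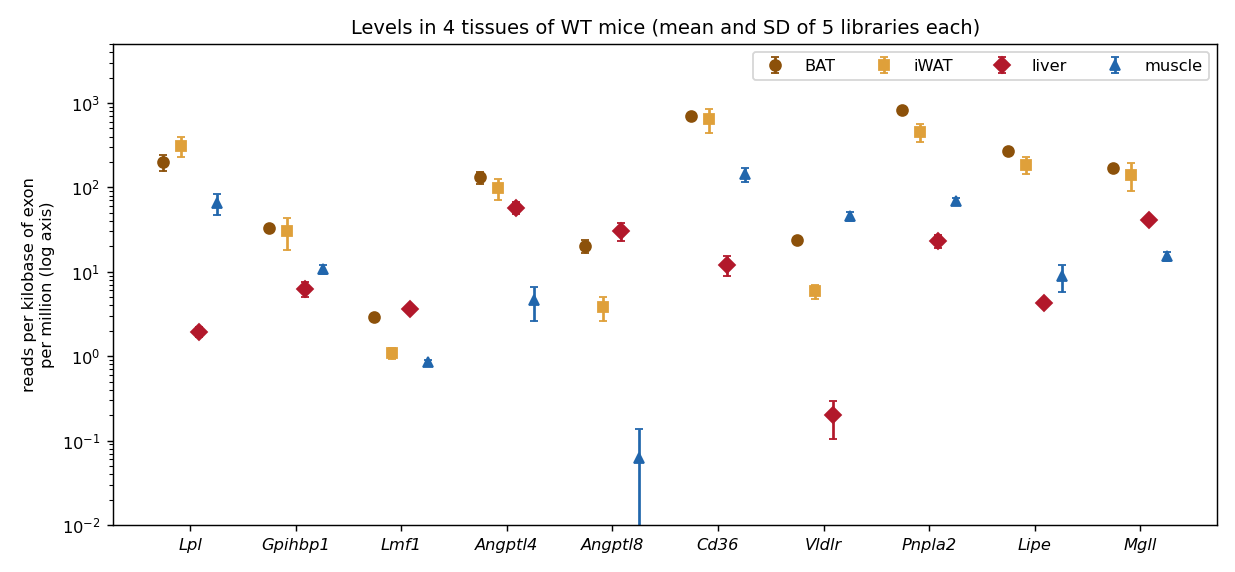
CPM per kilobase of exon (log axis) of the 10 genes in WT BAT, iWAT, liver and muscle, as mean and SD of 5 libraries (the lower bar is shortened where the SD exceeds the mean). Both fat depots lead for Lpl, Cd36, Pnpla2, Lipe and Mgll, liver leads for Lmf1 and Angptl8, and muscle leads for Vldlr, although by library totals BAT was 0.02 above liver for Lmf1 on the log2 scale.

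Per kilobase of exon, which allows levels of different genes to be compared, Pnpla2 (826 ± 75.05) and Cd36 (698 ± 18.0) led in BAT, and Lmf1 was lowest (2.88 ± 0.117). In liver the order opened with the inhibitor Angptl4 (57.2 ± 9.47), followed by Mgll (40.8 ± 1.86) and Angptl8 (30.6 ± 7.61), and Lpl was at 1.95 ± 0.257. The place of Lpl depended on the length used: with all annotated exons (10478 bases) it followed Pnpla2, Cd36 and Lipe in BAT at 200.2, and with its longest transcript (4115 bases) it was above Lipe at 509.9 and led the 10 in iWAT at 789.9. Over the 16 group means, the genes most like Lpl by Pearson correlation of log2 CPM were Cav1 (r = 0.997), Heg1 (0.996) and Lipo1 (0.996). Those most like Angptl4 were Pdzd11 (0.995), Dpm3 (0.993) and Pde3b (0.992), and those most like Pnpla2 were Slc24a3 (0.997), Pofut2 (0.996) and Dmtn (0.996). These 16 points fall into 4 tissues of 4 groups each, so the correlations describe tissue pattern.

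In BAT, loss of UCP1 on the WT background went with lower Gpihbp1 and Lipe, and no comparison called Cd36, Vldlr or Mgll. From here on CPM is scaled within the 20 libraries of a tissue, and differences are log2 fold changes of edgeR's quasi-likelihood model with Benjamini-Hochberg adjusted p-values over all genes tested in the tissue, given with their SE. Of the 10 genes, 2 were called in UCP1 KO against WT, both lower, beside 25.2% of all 15729 genes called and 11.4% called lower. The members' share was close to the background, and their median difference was -0.12 against 0.01 over all genes. In bulk tissue, fewer cells of a type and less RNA per cell cannot be told apart.

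Gpihbp1 lies on chromosome 15 (75596628 to 75599481, plus strand, GRCm38, as are all positions here). In BAT it was at 83.5, 91.5, 97.3, 86.5 and 84.2 CPM in WT and at 83.7, 57.5, 74.3, 71.0 and 71.1 in UCP1 KO. It was at 78.0, 78.7, 75.2, 82.3 and 84.7 in FGF21 KO and 81.0, 74.3, 74.2, 70.1 and 77.5 in dKO. The WT libraries were the highest of the 4 genotypes, but 1 UCP1 KO library and 1 FGF21 KO library lay within their range. The gene fell by 0.31 ± 0.08 in UCP1 KO against WT (adjusted p = 0.00411), and the differences in dKO against FGF21 KO (-0.08 ± 0.08, adjusted p = 0.459) and dKO against WT (-0.23 ± 0.08, adjusted p = 0.0247) were not called, although the libraries of the last pair did not overlap. Without WT library 2 or 3 the UCP1 KO call was lost (adjusted p = 0.0119 and 0.0162). Since Gpihbp1 is an endothelial gene, the endothelial list was read beside it: 1 of its 7 genes, Tek, was called, lower by 0.48 in UCP1 KO, and the list's summed level was 585 to 900 CPM against 773 to 936 in WT. With the endothelial score as covariate Gpihbp1 was at -0.33 (adjusted p = 0.004). The call was lost with the skeletal muscle score (-0.26, adjusted p = 0.0273), with both scores (-0.27, 0.0362) and in a fit of only the 2 genotypes (-0.30, 0.0272).

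Lipe lies on chromosome 7 (25379527 to 25398710, minus strand). Its BAT libraries were at 1551, 1636, 1515.5, 1849.7 and 1720.4 CPM in WT, and at 1387, 1341, 1343, 1010.3 and 1063 in UCP1 KO. FGF21 KO was at 1623, 1464, 1488, 1471 and 1391, and dKO at 1199.8, 1434, 1262, 866 and 1481. Every UCP1 KO and every dKO library was below every WT library. Lipe fell by 0.43 ± 0.12 in UCP1 KO against WT (adjusted p = 0.00993), a value at the edge of the threshold that passed in 4 of 20 fits made without 1 library each (adjusted p from 0.00198 to 0.0356). The call was also lost with RLE factors (-0.415, adjusted p = 0.0141) and in a fit of only the 2 genotypes. That fit called 0 members, beside 2614 of 15289 genes. The call was lost too with the endothelial score as covariate (-0.36, adjusted p = 0.0179), and with the endothelial and skeletal muscle scores together the difference was -0.20 (0.233). Lipe was lower in dKO by -0.41 ± 0.12 against WT (adjusted p = 0.0152) and by -0.25 ± 0.12 against FGF21 KO (adjusted p = 0.133), neither called by edgeR without covariates. DESeq2 called Lipe in dKO against WT (-0.40, adjusted p = 0.00789) and not against FGF21 KO (0.145). Of 5 adipocyte marker genes, 1 was called lower in UCP1 KO against WT (Adipoq, by -1.15), with a median of -0.25 and a summed level of 1130 to 2310 CPM against 2160 to 2710 in WT, and the part of this in the lipase values was not tested. Pnpla2, on chromosome 7 (141455198 to 141460743, plus strand) and upstream of Lipe in the pathway, was at 2253, 2562, 2723, 2825 and 2803 CPM in WT and 2618, 2178, 2178, 1775 and 1406 in UCP1 KO, with overlap. Its difference was -0.37 ± 0.13 (adjusted p = 0.026) in UCP1 KO against WT, -0.35 ± 0.13 (0.0386) in dKO against WT and -0.17 ± 0.13 (0.337) in dKO against FGF21 KO. Without UCP1 KO library 1, the highest of its group, Pnpla2 passed (-0.48, adjusted p = 0.00444). Mgll, the last step, was at 597 to 1128 CPM in UCP1 KO around a WT range of 819 to 1012, and its difference was -0.05 with a 95% interval of -0.40 to 0.29.

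Lmf1 lies on chromosome 17 (25579085 to 25662826, plus strand). In BAT it was at 39.3, 41.8, 43.7, 40.5 and 41.6 CPM in WT and 39.3, 36.7, 35.3, 40.9 and 41.5 in FGF21 KO. In dKO it was at 30.4, 30.9, 29.5, 32.9 and 32.1, and in UCP1 KO at 45.1, 28.4, 34.2, 37.8 and 36.8. The dKO libraries were a tight group below every WT and FGF21 KO library, while UCP1 KO spread across the range of all the others. Lmf1 fell by 0.41 ± 0.09 in dKO against WT (adjusted p = 0.00154). It was the only member edgeR called there without covariates, beside 21.1% of all genes called and 10% called lower. DESeq2 called 3 members there, Lmf1, Lpl and Lipe, beside 4236 of 15729 genes. The edgeR call of Lmf1 held in all 20 fits made without 1 library each, but not with the skeletal muscle score as covariate (-0.27, adjusted p = 0.066) or with the endothelial score added to it (-0.27, 0.0739). Its difference in dKO against FGF21 KO was -0.31 ± 0.09 (adjusted p = 0.0119), with none of the 10 called beside 13.5% of all genes. DESeq2 called Lmf1 in that comparison (adjusted p = 0.0051), and 2 of the 10 had an unadjusted p under 0.05, against 40% of all genes. The difference in UCP1 KO against WT was -0.18 ± 0.09 (adjusted p = 0.101), and it passed without UCP1 KO library 1 (-0.27, adjusted p = 0.00603).

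The sequences just before the RefSeq starts of the 2 of these 3 genes that the promoter table held are shown, with Cd36, the only one of the 7 matched members with the nuclear receptor motif AGGTCA in its window, beside them. Only bases outside every GENCODE exon are printed, 5′ to 3′ in the direction of the gene, from GRCm38.p6. Capitals mark matches on either strand to AGGTCA, to the E-box CACGTG or to TATAAA. Of 32851 windows of 250 bases before a start, 14% held AGGTCA, 6.02% CACGTG and 12.4% TATAAA.
Lmf1, chr17:25578924-25579084, plus strand: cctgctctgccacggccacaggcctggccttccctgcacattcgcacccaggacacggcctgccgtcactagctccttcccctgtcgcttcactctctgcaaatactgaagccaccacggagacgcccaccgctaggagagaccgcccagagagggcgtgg
Lipe, chr7:25390113-25390351, minus strand: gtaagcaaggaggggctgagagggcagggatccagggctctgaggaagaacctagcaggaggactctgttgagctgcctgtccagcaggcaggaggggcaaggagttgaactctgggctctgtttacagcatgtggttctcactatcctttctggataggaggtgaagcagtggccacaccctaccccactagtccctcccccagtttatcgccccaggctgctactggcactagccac
Cd36, chr5:17835897-17836146, minus strand: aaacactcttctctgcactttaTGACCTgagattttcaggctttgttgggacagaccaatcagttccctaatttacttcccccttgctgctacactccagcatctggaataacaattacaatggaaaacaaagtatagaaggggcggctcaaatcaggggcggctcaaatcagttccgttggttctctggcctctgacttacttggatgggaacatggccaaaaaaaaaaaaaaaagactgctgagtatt
None of the 3 motifs was in the stretch shown for Lmf1 or Lipe, and Cd36 held 1 AGGTCA on the reverse strand. The Lipe stretch precedes the start nearest the coding exons and lies within the span of longer Lipe transcripts. The Cd36 stretch lies inside the annotated span of Cd36 (17781690 to 17888801), not before its outermost start. Of the windows not printed because GENCODE exons cover them, that before the other Lipe start and 1 of Mgll each held CACGTG.

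Lpl, on chromosome 8 (68880491 to 68907448, plus strand), was at 1708, 1880.4, 2640, 2019 and 2822 CPM in BAT of WT and at 4515, 2464, 2755, 3409.7 and 3073 in UCP1 KO. FGF21 KO was at 2085, 1913, 1993, 2516 and 3046, and dKO at 3471, 3481, 2272, 3551 and 3790.4. Above every WT library were 3 of the 5 UCP1 KO and 4 of the 5 dKO libraries, and the others lay within the WT range. The difference was 0.55 ± 0.19 (adjusted p = 0.0239) in UCP1 KO against WT, 0.52 ± 0.19 (0.043) in dKO against FGF21 KO and 0.58 ± 0.19 (0.0198) in dKO against WT, none of them called. DESeq2 called Lpl in UCP1 KO (0.56, adjusted p = 0.00804) and dKO (0.59, adjusted p = 0.00605) against WT. The comparisons against WT share their controls.

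Neither inhibitor of the lipase was called in BAT. Angptl4, on chromosome 17 (33773750 to 33781830, minus strand), was at 409 to 598 CPM (WT), 255 to 548 (FGF21 KO), 317 to 446 (UCP1 KO) and 295 to 470.01 (dKO), and its difference was -0.35 ± 0.18 in UCP1 KO (adjusted p = 0.119) and -0.46 ± 0.18 in dKO (0.047) against WT, but -0.07 ± 0.18 in dKO against FGF21 KO (0.8). Angptl8, on chromosome 9 (21835510 to 21837347, plus strand), was within 13.0 to 25.1 CPM in every WT and FGF21 KO library. In UCP1 KO its libraries were at 11.9, 43.7, 54.0, 18.9 and 7.15 CPM and in dKO at 25.6, 46.2, 53.1, 8.62 and 37.7. The UCP1 KO and dKO libraries spread both above and below the others, and the differences of 0.55 ± 0.46 and 0.82 ± 0.46 were not called (adjusted p = 0.351 against WT and 0.189 for dKO against FGF21 KO). With the skeletal muscle score as covariate the first of these was 0.09. Angptl8 lies inside Dock6, a gene on the opposite strand, and reads of the pair cannot be told apart if the counting did not use strand. Dock6 was at 39.6 to 64.2 CPM over the BAT libraries.

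No comparison called the uptake receptors in BAT. Cd36, on chromosome 5 (17781690 to 17888801, minus strand), was at 2566 to 2718 CPM (WT), 2416 to 2687 (FGF21 KO), 2278 to 2936 (UCP1 KO) and 2131 to 2801 (dKO). Its difference of -0.06 in UCP1 KO against WT had a 95% interval of -0.23 to 0.10. Vldlr, on chromosome 19 (27216484 to 27254231, plus strand), was at 226 to 286 CPM in WT and 188 to 313 in UCP1 KO, with a difference of -0.06 (interval -0.39 to 0.26). Mgll, on chromosome 6 (88724412 to 88828360, plus strand), and Lipe are overlapped by antisense genes, and their reads too cannot be told apart from those if strand was not used.

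**Figure D2:**
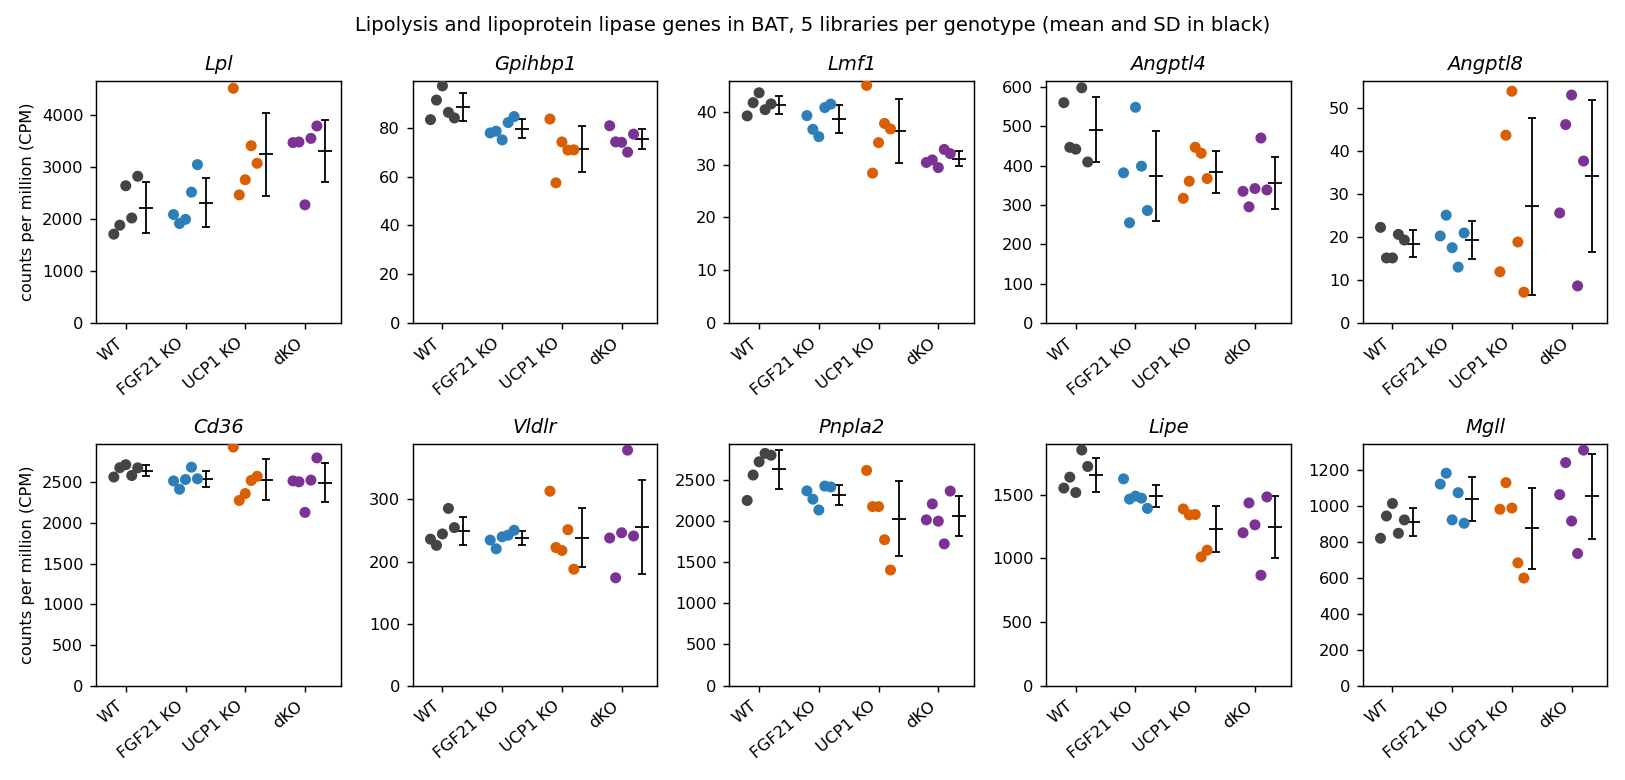
CPM of the 10 genes in BAT by genotype, 1 point per library, with the mean and SD of 5 libraries in black and each axis starting at 0. The dKO points of Lmf1 and the UCP1 KO and dKO points of Lipe lie below all WT points, and Angptl8 spreads from 7.15 to 54.0 CPM in UCP1 KO.

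Libraries of the 2 groups did not overlap for 1 of the 10 genes in UCP1 KO against WT (Lipe, 23.5% of all genes), 1 in dKO against FGF21 KO (Lmf1, 18.6%) and 3 in dKO against WT (Gpihbp1, Lmf1 and Lipe, 24.8%). Complete separation of 5 libraries from 5 fixes the exact two-sided permutation test at its smallest p, 0.00794, so that test adds nothing to the lack of overlap. No member was called in UCP1 KO against dKO (0.0636% of all genes called, 1 member and 12.9% of all genes with an unadjusted p under 0.05, no member called by DESeq2) or in FGF21 KO against WT. In the latter edgeR called 0 of 15729 genes (0%), 8.55% of genes and 1 member had an unadjusted p under 0.05, and DESeq2 called 30 genes and no member. The interaction, the effect of UCP1 loss in WT minus that in FGF21 KO, called 0 genes in BAT (0%), while 5.37% of genes and no member had an unadjusted p below 0.05, and DESeq2 called 1 gene. The interaction of Gpihbp1, called against WT and not against FGF21 KO, was -0.23 with an interval of -0.46 to 0.00, so its effects were not shown to differ with FGF21.

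Of the 10 skeletal muscle genes, 5 were called higher in BAT in UCP1 KO against WT and 0 in dKO against FGF21 KO, where their median difference was 4.07 (edgeR). When the skeletal muscle score entered the fit as a covariate none of the 3 member calls was kept: the adjusted p was 0.0273 for Gpihbp1 and 0.062 for Lipe in UCP1 KO against WT, and 0.066 for Lmf1 in dKO against WT. The values moved to -0.26, -0.35 and -0.27, and Lpl to 0.67 (adjusted p = 0.0157). With that score, 3140 of 15729 genes were called in UCP1 KO against WT and 1726 in dKO against WT. Without it the counts were 3965 and 3323. Score and genotype moved together, so their parts cannot be told apart. Macrophage genes were also higher, 5 of 6 called in UCP1 KO against WT with a summed level of 163 to 435 CPM against 122 to 148, and their part in the member values was not tested.

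The other genes of these pathways in BAT were read from fixed lists. They were read only from the fit without marker scores, and the part of muscle and macrophage cells in their values was not tested. Of 13 cofactors and processing factors of the lipase and related lipases, 2 were called higher and 2 lower in UCP1 KO against WT, a share near the 25.2% of all genes, with a median difference of -0.08 against 0.01 over all genes. Apoc2, the activator of lipoprotein lipase, rose by 1.79 ± 0.41 (adjusted p = 0.00214), and Sel1l, a part of the endoplasmic reticulum quality control that lipoprotein lipase needs to leave that compartment, rose by 0.73 ± 0.09 (1.21e-05) and again by 0.55 ± 0.09 in dKO against FGF21 KO (0.000363), the only call of the list there beside 13.5% of all genes. Furin, a protease that cleaves lipoprotein lipase, fell by 0.47 ± 0.12 (adjusted p = 0.00419). Of 12 uptake genes, 2 rose and 1 fell, beside the same 25.2% of all genes and with a median of -0.14. Among them, Fabp5 rose by 1.18 ± 0.32 (adjusted p = 0.00654) and Fabp3 by 0.87 ± 0.24 (0.00723), both carriers of fatty acids in the cytosol, and Lrp1, an endocytic receptor of lipoprotein remnants, fell by 1.16 ± 0.13 (4.03e-06). In dKO against FGF21 KO, where 13.5% of all genes were called, 1 of the 12 rose and 1 fell, with Fabp5 at 1.60 ± 0.32 (adjusted p = 0.00141) and Lrp1 at -1.26 ± 0.13 (3.44e-06).

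Of 13 genes that control lipolysis, 1 rose and 3 fell in UCP1 KO against WT beside 25.2% of all genes called, with a median of -0.27 against 0.01 over all genes. Adrb3, the adrenergic receptor that starts lipolysis in fat cells, fell by 1.29 ± 0.26 (adjusted p = 0.000694), Pde3b, the phosphodiesterase through which insulin restrains it, fell by 0.68 ± 0.16 (0.0021), and Abhd6, a monoacylglycerol lipase, rose by 1.03 ± 0.14 (3.32e-05). The same 3 were called in dKO against FGF21 KO, at -1.01 ± 0.25 (adjusted p = 0.00699), -0.59 ± 0.16 (0.00913) and 1.01 ± 0.14 (7.18e-05), beside 13.5% of all genes. The medians of the 3 lists there were -0.17, 0.04 and -0.13, against 0.00 over all genes.

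**Figure D3:**
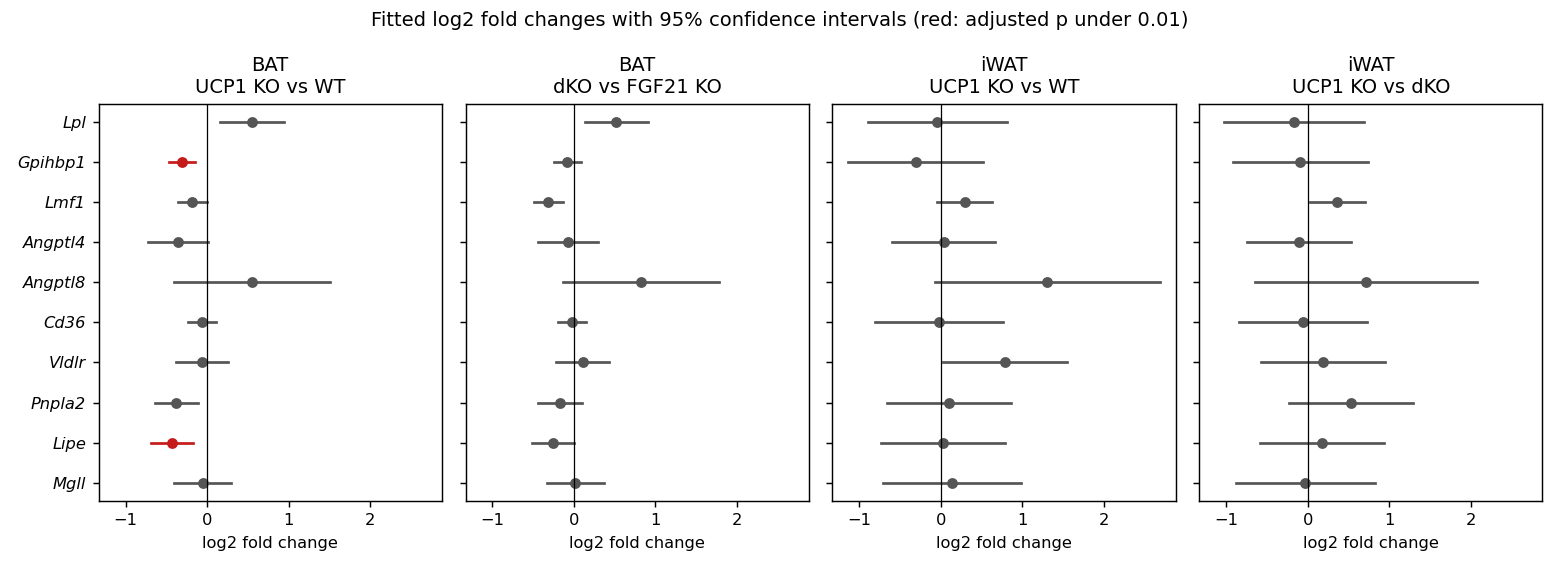
Log2 fold changes of the 10 genes (x axis) with 95% confidence intervals in BAT and iWAT, red where the adjusted p was under 0.01. In UCP1 KO against WT, Gpihbp1 and Lipe are red in BAT and none is red in iWAT, and each gene's interval is wider in iWAT than in BAT, with SEs of 0.16 to 0.66 against 0.08 to 0.46.

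In iWAT, where UCP1 KO exceeded WT in brown fat markers, none of the 10 genes was called. The brown markers Elovl3, Cidea, Dio2 and Cox7a1 rose by 8.39, 4.90, 4.67 and 3.56 in UCP1 KO against WT. In the same comparison the differences were -0.04 ± 0.41 for Lpl, -0.02 ± 0.37 for Cd36, 0.02 ± 0.36 for Lipe, 0.10 ± 0.36 for Pnpla2, 0.14 ± 0.41 for Mgll and 0.04 ± 0.30 for Angptl4. The intervals were wide, from -0.90 to 0.81 for Lpl and from -0.67 to 0.86 for Pnpla2, so changes within them were not excluded. Of all 17380 genes, 0.61% were called, and by edgeR 1 member (Vldlr) and 14.7% of all genes had an unadjusted p under 0.05. DESeq2 called none of the 10.

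The members with larger differences were Angptl8 and Vldlr. Angptl8 was at 7.37, 4.99, 4.48, 6.75 and 3.27 CPM in WT iWAT and 9.53, 6.53, 20.1, 14.8 and 15.6 in UCP1 KO, with 1 library overlapping, a difference of 1.31 ± 0.66 (adjusted p = 0.379). It was at 4.06, 17.7, 0.979, 1.21 and 1.72 in FGF21 KO and 3.11, 14.8, 5.63, 5.71 and 11.4 in dKO. Vldlr was at 113, 111, 101, 77.2 and 81.1 CPM in WT, 175, 105, 176, 162 and 216 in UCP1 KO, 84.9, 187, 51.3, 58.4 and 65.7 in FGF21 KO, and 91.3, 231, 73.2, 105 and 231 in dKO. Its difference in UCP1 KO against WT was 0.79 ± 0.36 (adjusted p = 0.321). Dock6, which overlaps Angptl8, was at 42.9 to 101 CPM in WT and 44.0 to 79.1 in UCP1 KO iWAT.

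Much of that spread went with the lymphocyte score. All 10 genes had a lower median in the 9 libraries with a high score than in the other 11, as did 53.1% of all genes tested. For 5 of them, Lpl, Gpihbp1, Lmf1, Cd36 and Mgll, each of the 9 lay below each of the 11, which held for 9.81% of all genes. Lpl was at 1675 to 4540 CPM (median 3198) in the 9 and 5219 to 9058 (median 6077) in the 11, and Cd36 at 1188 to 3065 (median 2089) and 3612 to 5918 (median 4401). Lipe was at 401 to 1782 CPM (median 918) and 1699.8 to 2406 (median 2032). The 9 libraries were 2 of WT, 4 of FGF21 KO, 1 of UCP1 KO and 2 of dKO. They do not mark a genotype, but they are unequally spread over the groups, and what part the cells behind the score had in these values was not tested.

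**Figure D4:**
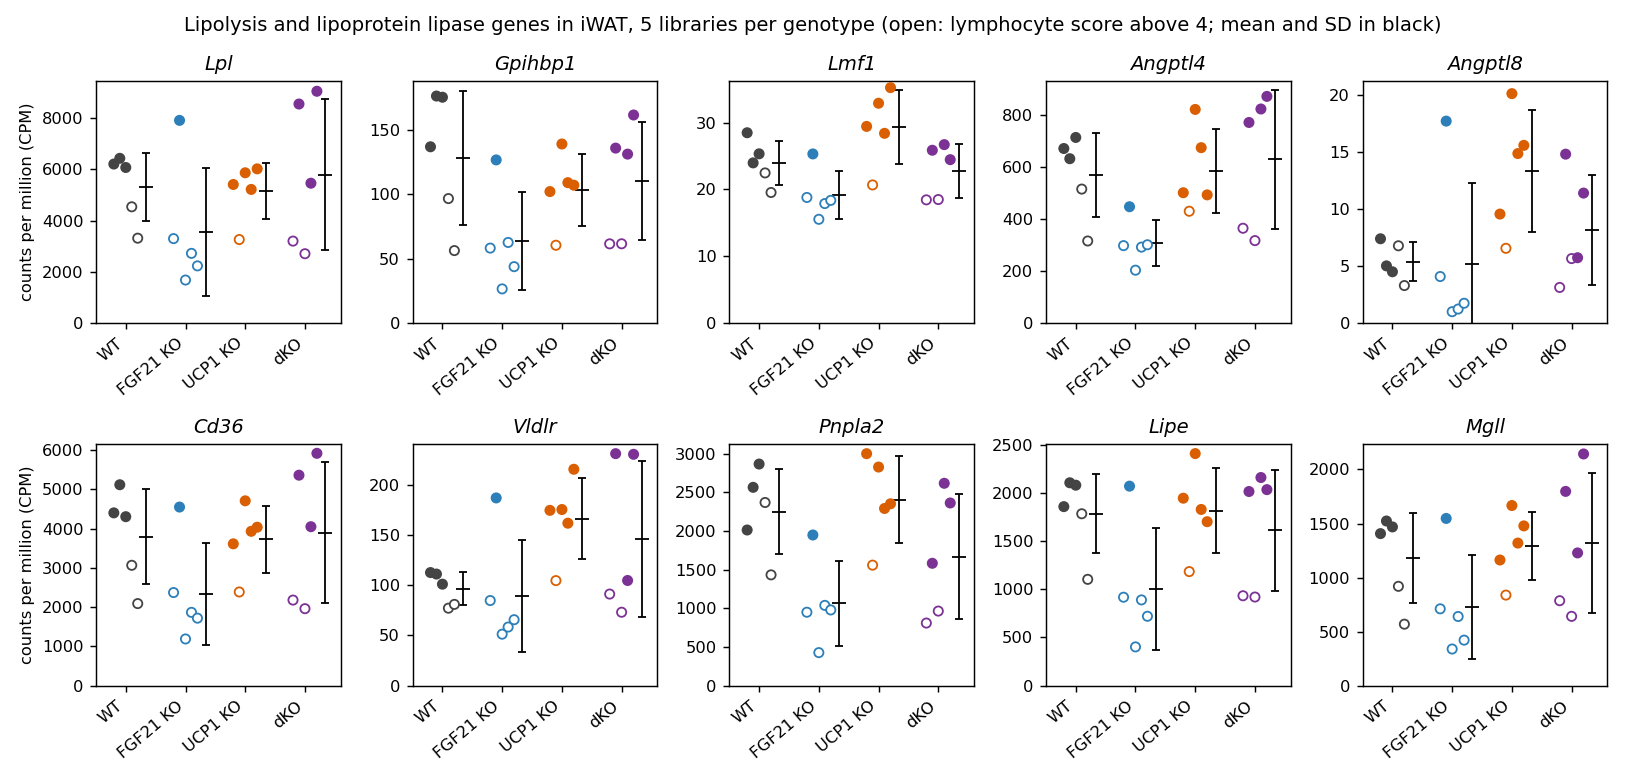
CPM of the 10 genes in iWAT by genotype, 1 point per library, open where the lymphocyte score was above 4, with the mean and SD of 5 libraries in black. For Lpl, Gpihbp1, Lmf1, Cd36 and Mgll every open point lies below every filled one, for the other 5 genes open and filled points overlap, and 4 of 5 FGF21 KO libraries are open.

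Within the libraries of low score, 3 of WT and 4 of UCP1 KO, Lpl was at 6077 to 6435 and 5219 to 6024 CPM. Gpihbp1 was at 137 to 176 and 102 to 139 CPM, a difference of -0.53 (adjusted p = 0.0293), Angptl8 at 4.48 to 7.37 and 9.53 to 20.1 CPM, a difference of 1.40 (0.0268), and Vldlr at 101 to 113 and 162 to 216 CPM, a difference of 0.73 (0.0719). No member was called in this smaller fit. With the lymphocyte score as covariate in all 20 libraries, the differences were -0.55 for Gpihbp1 (adjusted p = 0.0661), 0.81 for Angptl8 (0.256) and 0.52 for Vldlr (0.105), and the differences of the lipases were -0.23 for Lipe, -0.16 for Pnpla2 and -0.09 for Mgll.

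In FGF21 KO against WT all 10 differences in iWAT were below 0, from -1.07 ± 0.37 for Pnpla2 to -0.07 ± 0.65 for Angptl8, none called (adjusted p from 0.248 to 0.944, 0.00575% of all genes called). By edgeR 4 of the 10 and 17.4% of all genes had an unadjusted p under 0.05, and DESeq2 called none. Pnpla2 was at 948, 1947, 426, 1037 and 978 CPM in FGF21 KO and 2011, 2563, 2864, 2367 and 1431 in WT. The 1 FGF21 KO library with a low lymphocyte score was the highest of its group for Pnpla2 and for each of the other 9 genes. In the fit of low-score libraries, where FGF21 KO has that single library, assumed to vary like the other groups, the median of the 10 differences was 0.02, against -0.69 in the full fit. With the lymphocyte score as covariate in all 20 libraries the median was -0.35, within a range of -0.82 for Pnpla2 (adjusted p = 0.11) to 0.12, and 4 of the 10, beside 3075 of 17380 genes, had an unadjusted p under 0.05 with none called. In dKO against FGF21 KO the 10 differences were all above 0, from 0.25 to 1.03 (adjusted p from 0.542 to 0.599, 0.0115% of all genes called), with the same FGF21 KO libraries as the reference. Their median of 0.70 became 0.33 with the lymphocyte score as covariate (0.05 to 0.59) and 0.09 in the fit of low-score libraries (-0.74 to 0.88), with no member called in either. Angptl4, at 297, 447, 203, 292 and 301 CPM in FGF21 KO and 364, 772, 317, 824 and 872 in dKO, was by edgeR the 1 member with an unadjusted p under 0.05 (1.03 ± 0.30, adjusted p = 0.542), beside 8.62% of all genes. DESeq2 gave 5 members, Angptl4, Gpihbp1, Cd36, Vldlr and Mgll, such a p, beside 1793 of 17380 genes, and called none.

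UCP1 KO against dKO, which differ by FGF21 on a UCP1-deficient background, gave no member call in iWAT beside 0.466% of all genes. Pnpla2 was at 1557 to 2998 CPM in UCP1 KO and 808 to 2615 in dKO (0.53 ± 0.36, adjusted p = 0.572), Lmf1 at 20.7 to 35.3 and 18.4 to 26.7 (0.36 ± 0.16, 0.301), and Lpl at 3259 to 6024 and 2704 to 9058 (-0.17 ± 0.41, 0.87). With the lymphocyte score as covariate Lmf1 was at 0.27 (adjusted p = 0.021). In the libraries of low score, 4 of UCP1 KO and 3 of dKO, the median of the 10 was -0.21, against 0.07 in the full fit, and 5, beside 3911 of 16124 genes, had an unadjusted p under 0.05 with none called (adjusted p from 0.106). These were Lpl at -0.47, Angptl4 at -0.43, Gpihbp1 at -0.35, Cd36 at -0.35 and Lmf1 at 0.27. In the full fit, 1 member and 14.2% of all genes had an unadjusted p under 0.05, and DESeq2 called none. In dKO against WT (0.0173% of genes called) no member and 5.91% of all genes had an unadjusted p under 0.05, and none was called by DESeq2. The iWAT interaction called 0 genes (0%), 9.98% had an unadjusted p below 0.05, DESeq2 called 62, and neither tool called a member.

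By edgeR none of the 13 cofactor, 12 uptake and 13 lipolysis control genes was called in iWAT, in UCP1 KO against WT or against dKO. Of all genes, 0.61% were called against WT and 0.466% against dKO, so the lack of calls does not set these lists apart. The medians of the lists were 0.12, 0.23 and 0.15 against WT, beside -0.03 over all genes. Against dKO they were -0.001, 0.379 and 0.3, beside -0.035 over all genes. Whether these medians differ from those of all genes was not tested.

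In liver no member was called in any comparison. The share of all 14407 genes called was 0.0694% in UCP1 KO against WT, 0.00694% in dKO against FGF21 KO, 0.00694% in UCP1 KO against dKO, 0.229% in FGF21 KO against WT and 0.0416% in dKO against WT. The interaction called 0 (0%), 5.16% had an unadjusted p below 0.05, and DESeq2 called 9. By edgeR at most 2 of the 10 genes had an unadjusted p under 0.05 in any of them, beside 5.16% to 12.1% of all genes, and DESeq2 called none. Angptl8 spread widely, at 21.7, 18.7, 18.3, 27.9 and 14.8 CPM in WT, 18.0, 26.2, 24.2, 18.0 and 15.8 in FGF21 KO, 3.70, 23.7, 5.18, 17.2 and 23.2 in UCP1 KO, and 52.4, 128, 24.3, 5.74 and 28.2 in dKO. As in BAT, the WT and FGF21 KO libraries were close together and those of UCP1 KO and dKO wide apart, and its difference of -1.71 ± 0.57 in UCP1 KO against dKO was not called (adjusted p = 0.535). Cd36, low in WT liver at 21.7 to 42.9 CPM, was at 30.8 to 101 CPM in dKO, with overlap. Lpl stayed between 6.26 and 21.3 CPM over all 20 livers and Lmf1 between 31.1 and 49.0.

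**Figure D5:**
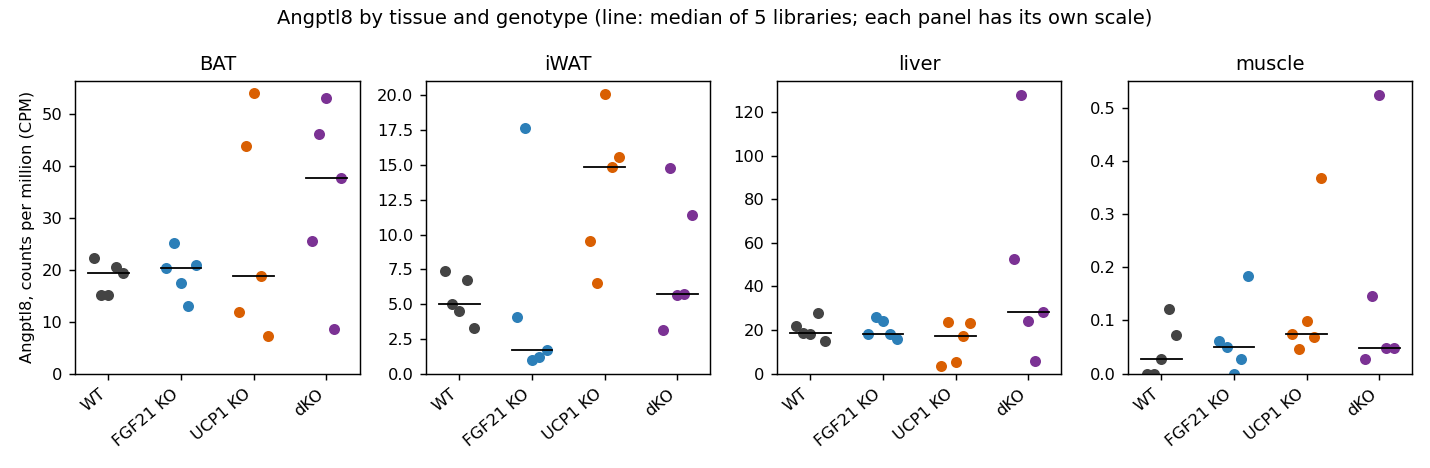
CPM of Angptl8 by tissue and genotype, 1 point per library, with the median of 5 as a line and a separate scale for each tissue. In BAT and liver the UCP1 KO and dKO points spread further than the WT and FGF21 KO points, and in muscle none is above 0.525 CPM.

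In muscle, as in liver, no member was called. Of all 15114 genes, 0.0265% were called in UCP1 KO against WT, 0.0595% in dKO against FGF21 KO, 0% in UCP1 KO against dKO, 0.00662% in FGF21 KO against WT, 0.0529% in dKO against WT and 0% by the interaction. At an unadjusted p under 0.05 the counts of 0 correspond to 11.7% and 7.48% of genes, and DESeq2 called 20 and 0. DESeq2 called no member either, and by edgeR at most 1 had an unadjusted p under 0.05 in any comparison, beside 7.48% to 12.9% of all genes. Lpl was at 820.02, 615, 444, 487 and 441 CPM in WT and 519, 456, 440.3, 398 and 434 in UCP1 KO, with overlap. Vldlr, at its highest level of the 4 tissues here, was at 324 to 450.2 CPM (WT), 418 to 507 (FGF21 KO), 273 to 464 (UCP1 KO) and 387 to 476 (dKO). Pnpla2 kept to 125 to 214 CPM and Lmf1 to 8.17 to 10.96 CPM over all 20 libraries. Angptl8 had at most 0.525 CPM in any muscle library, a level at which no difference was detectable.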

How the data were processed

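Poly(A) RNA of BAT, iWAT, liver and muscle was sequenced by the authors in paired-end, strand-marked libraries, aligned with STAR to mm10 (GRCm38, UCSC known genes) and counted per gene with HTSeq-count. Whether counting used strand is not given in the sources used here. The deposited values are raw read counts, 1 library per file, with a row of reads without gene name (402 reads in all, at most 3.42e-05% of a library) that was left out. The groups of 5 libraries came from the labels for tissue and genotype.

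Genes of each tissue were kept if their maximum was above 15 counts, their sum above 75 and at most 10 libraries were at 0, after the study's filter. The counts of the 20 libraries were scaled with TMM factors and fitted with edgeR 4.0.16 (R 4.3.3, limma 3.58.1), 1 mean per genotype and no covariate. Adjusted p-values under 0.01 were called. Angptl8 passed the filter in muscle with counts near 0. WT libraries of the 4 tissues were fitted together in the same way. Alternatives were DESeq2 1.42.0, RLE factors, library totals, no filter, 2 genotypes only, a threshold of 0.05, marker scores as covariates, and each library left out. Log2 CPM used a prior count of 2, and marker scores are means of log2(CPM + 0.1). The fit was tested on simulated data. Libraries of a tissue were never identical in 760 pairs. Depth limits only the genes near 0 counts.

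The 10 genes, the lists and the tests were chosen with earlier results of these data known. Beyond the 10, at most 3 called genes with the largest change were named from each list, and 3 genes of nearest pattern for Lpl, Angptl4 and Pnpla2. Genes in the marker lists were named to show what moved with a result. Positions and lengths are from GENCODE on GRCm38 and promoter sequences from RefSeq (GRCm38.p6), which held 7 of the 10 genes. Intervals are 95% confidence intervals of the fit.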

Additional observations from a re-analysis of the deposited data

Results flagged for a closer look

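In 160 groups of 5 libraries (10 genes, 16 groups), 4 had 1 library far from the others by Dixon's criterion, where chance would mark about 1 in 20 groups. These were Lpl at 2272 CPM in BAT of dKO library 3, Lpl at 3259 CPM in iWAT of UCP1 KO library 2, Lipe at 1102 CPM in iWAT of WT library 5 and Lmf1 at 8.17 CPM in muscle of WT library 3. Both iWAT libraries have a high lymphocyte score (7.10 and 6.86), and the dKO BAT library has a skeletal muscle score of 8.56, the highest of its group.

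For 2 genes every library of the knockout lay on one side of the controls' mean log2 CPM in one tissue and on the other side in another tissue. Lpl in UCP1 KO against WT was higher in BAT (log2 fold change 0.55) and lower in muscle (-0.32). Lipe in dKO against FGF21 KO was lower in BAT (-0.25) and higher in iWAT (0.69), where 4 of the 5 controls have a high lymphocyte score. None of these values was called within its tissue, and the differences between tissues were not tested.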

How the results depend on the processing

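Of 782 counts of called members under other settings, 745 were within 1.5 times the reported count, and the rest were in BAT. In UCP1 KO against WT, 2 members called became 4 at an adjusted p under 0.05, 1 with RLE factors, without the filter or with the endothelial score, and 0 with only 2 genotypes, with the skeletal muscle score or with both scores. In dKO against FGF21 KO, 0 became 2 at 0.05 and 1 with DESeq2 or only 2 genotypes. In dKO against WT, 1 became 6 at 0.05, 3 with DESeq2 or the endothelial score and 0 with the skeletal muscle score or both scores. Without 1 library the counts in these 3 comparisons were 0 to 4, 0 to 1 and 1 to 2. They were unchanged in 3, 18 and 17 of 20 fits. The cause was not tested. Counts over all genes also moved. In BAT, UCP1 KO against WT, 3965 of 15729 genes became 6395 at 0.05, 3910 with RLE factors and 3585 without the filter (of 22425). The count was 3551 with the endothelial score, 3140 with the skeletal muscle score, 2173 with both and 2614 (of 15289) with only 2 genotypes. In dKO against FGF21 KO, 2129 became 4405 at 0.05, 3065 with DESeq2, 1941 (of 15179) with only 2 genotypes and 705 with both scores. In dKO against WT, 3323 became 5805 at 0.05, 4236 with DESeq2 and 3716 with the endothelial score. With the skeletal muscle score it was 1726, and with both scores 1708. In iWAT, UCP1 KO against WT, 106 became 597 with DESeq2, 847 with the lymphocyte score, 661 in the libraries of low score and 1 with only 2 genotypes, with no member called in any of them.

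The called values of Gpihbp1, Lipe and Lmf1 in BAT kept their sign in each of these settings, but Lipe in UCP1 KO against WT went from -0.43 to -0.20 with both scores (adjusted p = 0.233), and Lmf1 in dKO against WT from -0.41 to -0.27 with the skeletal muscle score or both (adjusted p = 0.066 and 0.0739). The following uncalled log2 fold changes did not. In BAT, UCP1 KO against WT, Cd36 was 0.0248 with the skeletal muscle score and 0.0359 with both scores, and Mgll 0.0067 with the endothelial score and 0.0999 with both. In dKO against FGF21 KO, Cd36 was 0.0944 and 0.109, Vldlr -0.0255 with the skeletal muscle score, and Pnpla2 0.0803 and Lipe 0.0443 with both. In iWAT, UCP1 KO against WT, the skeletal muscle score gave 0.0022 for Lpl and 0.0369 for Cd36, the lymphocyte score -0.14 for Angptl4, -0.16 for Pnpla2, -0.23 for Lipe and -0.0878 for Mgll, and the libraries of low lymphocyte score -0.13 for Angptl4, -0.0495 for Lipe and -0.0792 for Mgll. Against dKO, the skeletal muscle score gave 0.0535 for Gpihbp1, 0.0497 for Cd36 and 0.11 for Mgll, and the libraries of low score -0.0776 for Vldlr and -0.0964 for Lipe.

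Without 1 library, values in BAT ranged in UCP1 KO against WT from -0.18 to 0.0114 (Vldlr) and -0.16 to 0.0568 (Mgll), and in dKO against FGF21 KO from -0.19 to 0.11 (Angptl4), -0.0691 to 0.0274 (Cd36), -0.0795 to 0.22 (Vldlr) and -0.0735 to 0.12 (Mgll). In iWAT they ranged in UCP1 KO against WT from -0.17 to 0.0833 (Lpl), -0.12 to 0.13 (Angptl4), -0.18 to 0.11 (Cd36), -0.0281 to 0.22 (Pnpla2), -0.11 to 0.14 (Lipe) and -0.0402 to 0.26 (Mgll), and against dKO from -0.35 to 0.0501 (Lpl), -0.24 to 0.0863 (Gpihbp1), -0.28 to 0.0375 (Angptl4), -0.23 to 0.14 (Cd36) and -0.20 to 0.22 (Mgll). Angptl8 in iWAT, FGF21 KO against WT, was 1.67 in the libraries of low score and ranged from -1.43 to 0.195 without 1 library.

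In WT, library totals reversed BAT against iWAT for Gpihbp1 (-0.605), Angptl4 (-0.296), Cd36 (-0.599), Lipe (-0.197) and Mgll (-0.449), and BAT against liver for Lmf1 (0.0174). Without 1 library, BAT against iWAT ranged from -0.0939 to 0.239 for Gpihbp1 and from -0.045 to 0.242 for Cd36, both below 0 without iWAT library 5. Lpl in that pair was called without iWAT library 4 or 5, BAT library 5 or muscle library 1, and Lipe without muscle library 4. Angptl4 between iWAT and liver lost its call without iWAT library 1, 2 or 3 or liver library 1, 2 or 5 (0.69 to 0.77), and Gpihbp1 between liver and muscle without muscle library 2 or liver library 4 or 5 (-0.71 to -0.70). No paired analysis was possible because the labels give no replicate numbers or mouse identities.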
